A study of Mus musculus with 20 samples.

Results

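Monos/Lymphos/Granulos was the name under which the authors' annotation of retinal wells kept monocytes, lymphocytes and granulocytes as 1 class. Its members were taken from that annotation in the laser libraries, and they numbered 87 of 389 annotated wells there, beside 108 wells named DCs (dendritic cells) and 194 named Microglia. The whole annotation of retina held 511 wells, and the control libraries had 2 wells of the class, which entered no comparison. A well received 1 sorted cell by design. The animals were C57BL/6 mice aged 8 weeks from a facility free of specific pathogens, and both groups compared here were retina after laser lesioning (CNV in the labels, for choroidal neovascularization), 3 days and 7 days after the laser. Cells had been stained for CD45 and CD11b and sorted as CD45+, and transcripts were counted by mCEL-Seq2, a plate method that reads mRNA ends with molecular identifiers. Each group had 4 libraries of 192 wells, named here P1-1, P1-2, P2-1 and P2-2. The libraries P1-1 and P1-2 of a day form the pair P1, and P2-1 and P2-2 form the pair P2. Some 6 mice were used over 3 experiments, by the design text, and no label ties a library to a mouse, so every p-value below may measure a spread that is technical.

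Monocytes are blood-borne myeloid cells that leave the marrow through the chemokine receptor Ccr2 and can become macrophages or dendritic cells in injured tissue. Lymphocytes include T cells, which carry a receptor made with the CD3 chains, and natural killer cells, which share granule proteins such as Nkg7 with cytotoxic T cells. Granulocytes, most often neutrophils, are short-lived cells rich in S100a8 and S100a9. The resting retina, behind its blood barrier, holds few of any of these, and its main immune cells are microglia.

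Laser libraries held from 371329 to 1130863 estimated transcripts and from 56 to 119 wells of at least 1000 transcripts and at most 25% mitochondrial transcripts, and 82 of the 87 class wells met both limits. The median class well had 5296 transcripts of 1788 genes, against 9446 transcripts in DCs and 4163 in Microglia. Day 3 gave 46 class wells and day 7 gave 41. The sums of the class wells of a pair held 121978 (18 wells) and 150466 transcripts (28 wells) at day 3, and 167030 (26 wells) and 80259 transcripts (15 wells) at day 7. The same 192 well names recur in all 8 libraries because they name plate positions.

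The class was mostly lymphocyte-like by the authors' second call. That call names a cell type by signature, and how it was made is not given in the sources used here. It read Lymphos in 47 of the 87 wells, Monocytes in 13, DCs in 9, Granulocytes in 2 and Microglia in 2, and left 14 unassigned. Lymphos calls made up 40%, 23.1%, 36.4% and 35.3% of the class in the 4 day 3 libraries and 69.2%, 84.6%, 100% and 70% in the 4 day 7 libraries. The days did not overlap, with means of 33.7% ± 7.35 (SD, n = 4) and 81% ± 14.5 (SD, n = 4). The difference was 47.3 percentage points (two-sided exact permutation test over libraries, p = 0.0286, the smallest 4 against 4 can give; Benjamini-Hochberg adjusted over 7 tests 0.05, taken here as a pass).

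Monocyte calls moved the other way. They held 20%, 30.8%, 18.2% and 23.5% of the class at day 3 and 7.69%, 7.69%, 0% and 0% at day 7, again without overlap. Their mean share dropped by 19.3 percentage points, from 23.1% ± 5.56 to 3.85% ± 4.44 (SD, n = 4 each; exact permutation p = 0.0286, adjusted 0.05). In wells this was 11 of 46 at day 3 and 2 of 41 at day 7. Unassigned wells fell by 16.3 percentage points, from 22.7% ± 4.93 to 6.35% ± 4.37 (exact permutation p = 0.0286, adjusted 0.05). All signature calls divide the same class wells of a library, so a higher Lymphos share leaves less for the other calls together. The Lymphos, Monocytes and unassigned results are therefore linked and are not separate findings. Their adjusted p of 0.05 rests on linked tests tied at the smallest exact permutation p. The share of the whole class among annotated wells was 23.9% ± 9.73 at day 3 and 22.9% ± 7.57 at day 7 (SD, n = 4 each; exact permutation p = 0.83, adjusted 0.914). Leaving out any 1 of the 4 day 7 libraries put the adjusted p of the Lymphos, Monocytes and unassigned shares at 0.0667. Their unadjusted exact permutation p stayed at 0.0286, and the days still did not overlap. The adjusted value moved because cluster 12, adjusted together with them, then had an exact permutation p of 0.0571. Leaving out any 1 day 3 library ended none of these calls. Taken as 2 pairs against 2 the design could not go below an exact p of 0.333.

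**Figure D1:**
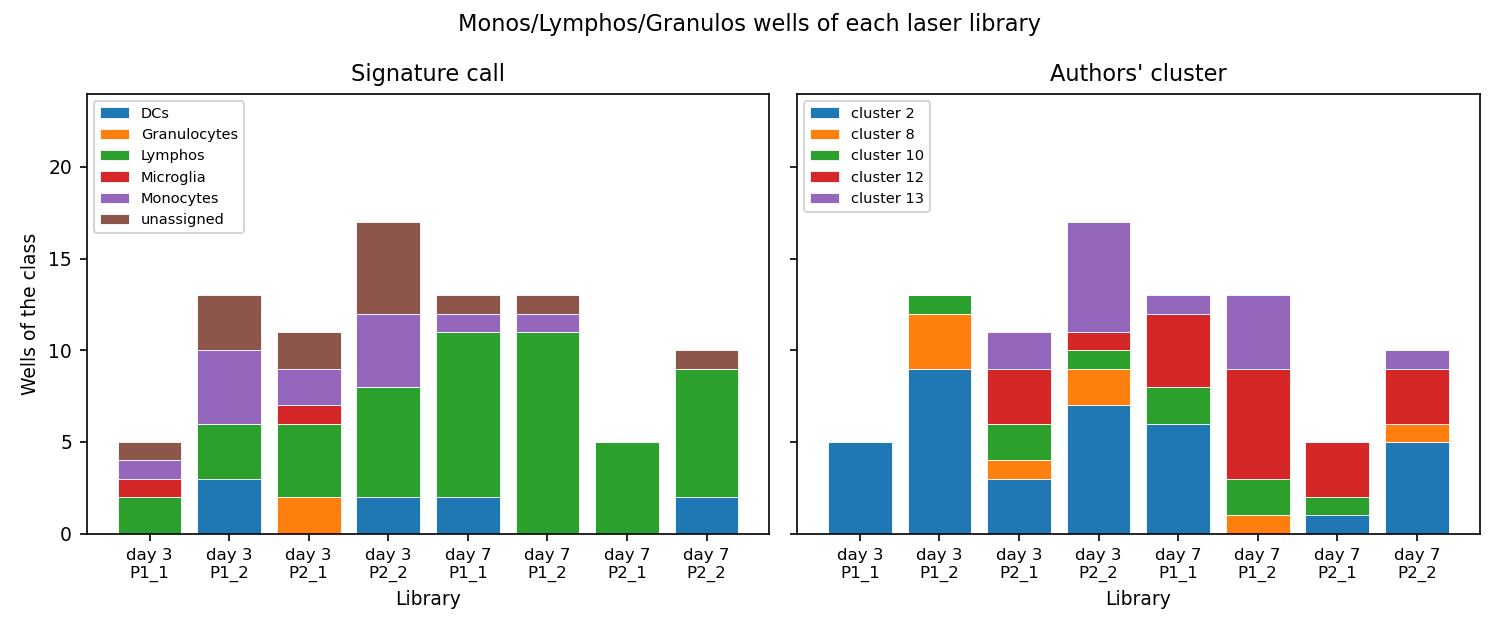
Bars count the class wells of each laser library (x axis), stacked by signature call on the left and by the authors' cluster on the right; the y axis is the number of wells. Lymphos wells number 2 to 6 in the day 3 libraries and 5 to 11 in the day 7 libraries, and cluster 12 has 0 to 3 and 3 to 6.

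The authors' clusters cut the class differently. The largest, cluster 2, held 36 wells, cluster 12 held 20, cluster 13 held 14, cluster 10 held 9 and cluster 8 held 8. Cluster 2 mixed 17 Lymphos, 7 DC, 6 Monocyte, 4 unassigned and 2 Microglia calls, whereas 18 of the 20 wells of cluster 12 were Lymphos. Cluster 12 gave 0%, 0%, 27.3% and 5.88% of the class in the day 3 libraries and 30.8%, 46.2%, 60% and 30% in the day 7 libraries. Every day 7 library lay above every day 3 library, and the mean rose from 8.29% ± 13 to 41.7% ± 14.3 (SD, n = 4 each; exact permutation p = 0.0286, adjusted 0.05). Without any 1 day 7 library its adjusted p was 0.1. As 18 of the 20 wells of cluster 12 were Lymphos, its share is tied to the Lymphos share and is no independent result. The clusters were drawn on the genes of these cells, so the share of cluster 12 and the day difference of its genes are 1 observation. Cluster 2 held 59.4% ± 32.2 of the class at day 3 and 29% ± 23.5 at day 7 (exact permutation p = 0.2, adjusted 0.28), and all 5 class wells of the day 3 library P1-1 were in it. Cluster 13 held 13.4% ± 16.9 and 12.1% ± 13.1 (exact permutation p = 0.914, adjusted 0.914).

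The 5 clusters were led by different genes, given here as a description, since the clusters rest on them. Cluster 12 was led by Gzmb, a granule protease of killer lymphocytes, which was found in 8 of its 20 wells at a mean of 969.7 CPM against 41.7 in the other class wells. Ccl5, a chemokine of activated T and NK cells, was in 19 of the 20 wells at 5903 against 452 CPM. Other leaders were Gimap7 and Gimap9, GTPases of lymphocytes, the signalling kinase Prkch, the adaptor Lime1, and Bcl11b, a transcription factor of the T lineage found in 12 wells.

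Cluster 2 was led by Tcf4, the transcription factor that specifies plasmacytoid dendritic cells, which was in 17 of 36 wells at 335 against 44.8 CPM. Cd74, the invariant chain of MHC class II, was in 27 of the 36 wells at 3205 against 567 CPM. Cluster 13 was led by the interferon-induced antiviral gene Rsad2, in 6 of 14 wells at 880.0 against 76.5 CPM, and held Oasl2, another interferon-induced gene, at 692 against 81.7. Csf3r, the receptor for granulocyte colony-stimulating factor, stood at 939.8 against 171.8 CPM there.

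Clusters 8 and 10 were under the limit of 10 wells set for naming leaders, and the genes named here were picked after their values were seen. In cluster 8, Lyz1, a lysozyme of myeloid cells, was in 8 of 8 wells at 19110 against 795.9 CPM, and Fn1, fibronectin, was in 6 of 8 at 1557 against 47.4. F13a1, a coagulation factor subunit of monocytes, was among its leaders. Cluster 10 was led by Il1rn, the interleukin 1 receptor antagonist, and Hmox1, haem oxygenase, the latter in 7 of 9 wells at 403 against 11.4 CPM.

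**Figure D2:**
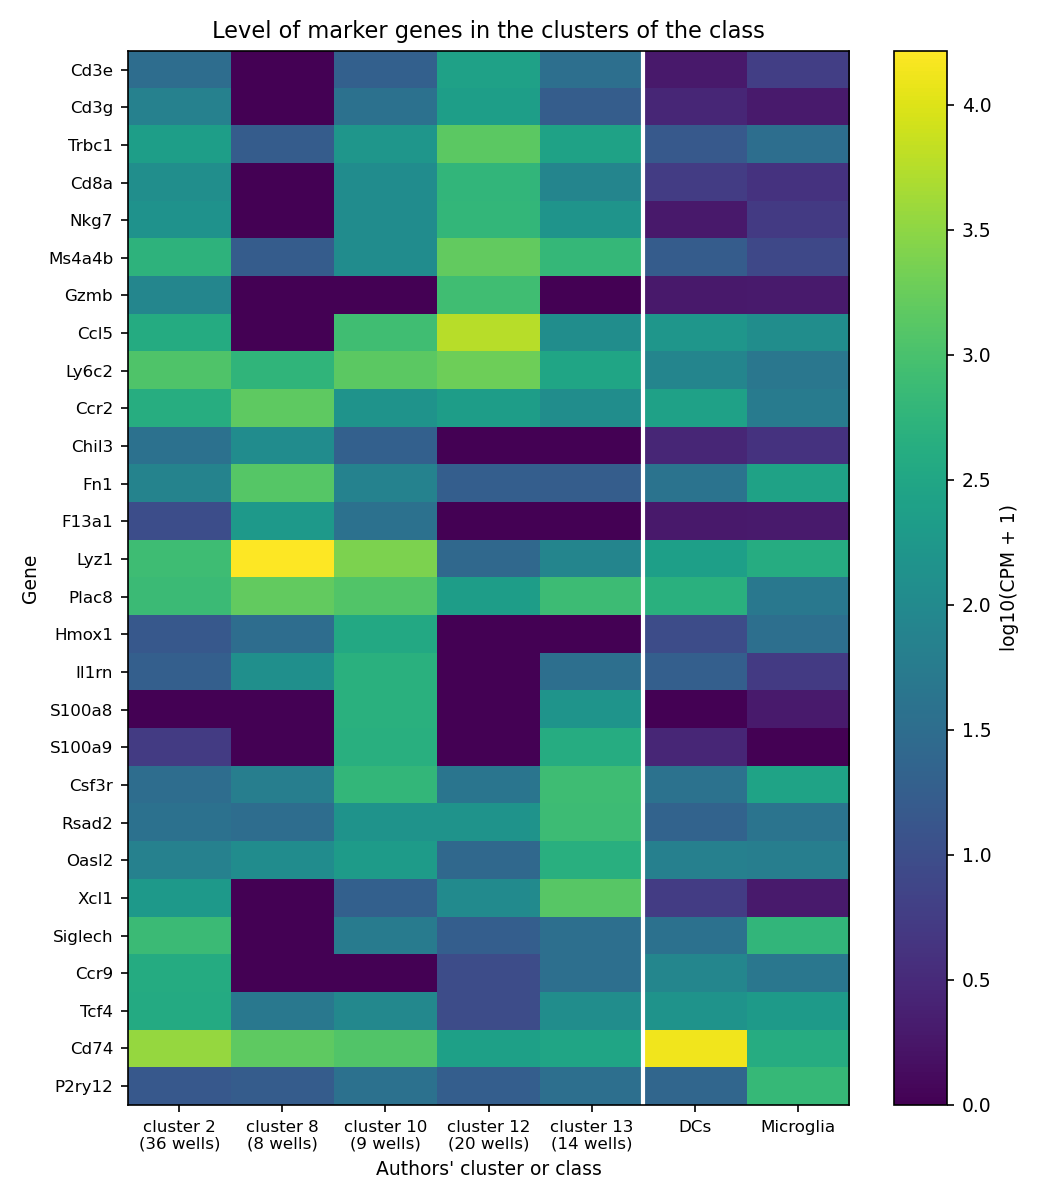
Each cell gives the level of 1 gene (y axis) in the summed wells of a cluster of the class, or in DCs or Microglia (x axis), as log10(CPM + 1), where CPM is transcripts per 1e6 of the sum. Gzmb and Ccl5 are brightest in cluster 12, Fn1, F13a1 and Lyz1 in cluster 8, and Siglech and Ccr9 within the class in cluster 2.

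T cell genes were the clearest identity in the class. At least 1 transcript of a CD3 chain or T cell receptor constant gene (Cd3d, Cd3e, Cd3g, Trac or Trbc1) was found in 35 of 87 wells (40.2%), against 8 of 108 DCs (7.41%, with deeper wells) and 28 of 194 Microglia (14.4%, with shallower wells). The shares in DCs and Microglia stand for the background, since neither makes the receptor. Of the 35 wells 15 were in cluster 12, 14 in cluster 2 and 31 had the Lymphos call. They numbered 8 at day 3 and 27 at day 7. The 15 detected T cell markers, of 16 listed, summed to 304 and 891 CPM in the day 3 pairs and 3597 and 5764 in the day 7 pairs, against 18.8 to 78.1 in DC pairs and 6.39 to 176.9 in Microglia pairs.

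Cd8a, a chain of the co-receptor of cytotoxic T cells, was in 23 class wells and reached 595 CPM in cluster 12, 121 in cluster 2 and 0 in cluster 8, against 4.69 in DCs and 3.09 in Microglia. Either CD8 chain was found together with a CD3 or receptor transcript in 20 wells, 18 of them at day 7, and Cd4, the helper T cell co-receptor, with 1 of them in 3 wells. Nkg7 was in 32 class wells, 31 of them Lymphos calls and 27 with a CD3 or receptor transcript, but in 1 DC well and 3 Microglia wells. Ms4a4b, a membrane protein of T cells, was in 36 class wells at 675 CPM (1591 in cluster 12), against 15.9 in DCs and 7.21 in Microglia. After each well was thinned to 1000 transcripts, a transcript of Ms4a4b was expected in 29.9% of class wells, 1.68% of DCs and 0.948% of Microglia. The same value for Nkg7 was 17.7%, 0.098% and 0.387%, and for Cd8a 14%, 0.553% and 0.325%.

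Other lymphocytes left fewer traces. A set of natural killer genes was found in 16 class wells, 6 of them without a CD3 or receptor transcript, and in 3 wells of each of the other classes. The NK and ILC1 list, 12 of 13 members detected, was highest in cluster 13 at 2479 CPM, of which 1311 came from Xcl1, a chemokine of NK and CD8 T cells, in 3 wells. Of the 8 gamma-delta T cell markers 4 had values in the deposited counts, and 3 of these were detected. Of the 8 ILC2 markers 7 had values and 6 were detected, at 106.6 to 174.5 CPM summed. A marker without values is not shown to be absent from the cells. The helper and regulatory T cell list summed to 32.8 to 112.2 CPM. Of its 6 members 5 had values, and 4 were detected. Of the B cell and plasma cell list 5 members were detected, led by the immunoglobulin genes Ighm, Iglc2 and Igkc and the transcription factor Ebf1. They summed to 179.7 to 273 CPM in the class pairs, 109.6 to 301 in DC pairs and 149 to 235 in Microglia pairs, ranges that overlap, and to 384 in cluster 2. Cd79a, Cd79b, Ms4a1 and Pax5, which are among the defining genes of B cells, had no transcript in any class well.

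Ly6c2 marks inflammatory monocytes but is also made by activated CD8 T cells. Its smallest-pair ratio to DCs was the largest among ranked genes of at least 100 CPM, as given further on. Mitochondrial, ribosomal and predicted genes were left out of that ranking. Ly6c2 was found in 48 class wells at 1178 CPM, against 21 DC wells at 82.7 and 25 Microglia wells at 45.4 CPM. Of the 48 wells 33 had the Lymphos call and 9 the Monocytes call. A CD3 or receptor transcript was present in 27 of the 48, and a monocyte transcript (Chil3, Fn1, F13a1, Hp or Vcan) in 10, of which 2 had both. The remaining 13 had neither. Its level was 1908 CPM in cluster 12, 1442 in cluster 10, 1134 in cluster 2, 583 in cluster 8 and 300.3 in cluster 13. Thinned to equal depth, 56.4% of the cluster 12 wells and 30.6% of the cluster 8 wells were expected to hold a transcript. Ly6c2 with a transcript of the monocyte set was in 11.5% of class wells, 4.12% of Microglia and 2.78% of DCs. Of the 10 class wells 7 had the Monocytes call. The monocyte set alone was about as frequent in Microglia as in the class, as given further on. As both other classes held such wells, the 10 wells are no count of monocytes.

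Ccr2 followed the monocyte calls more closely. It was in 40 class wells, 25 of them Lymphos calls and 11 of them Monocyte calls, of which there were 13. In cluster 8 it was in 7 of the 8 wells. Ccr2 was also in 18 class wells with a CD3 or receptor transcript and in 51 of the 108 DCs. Its level was 1451 CPM in cluster 8, 415.5 in cluster 2, 221 in cluster 12, 147 in cluster 10 and 117 in cluster 13, with 261 in DCs and 54.7 in Microglia. Chil3, a chitinase-like protein of monocytes and macrophages, was in only 5 class wells, 3 of them in cluster 8, at 30.8 CPM over the class. All 12 classical monocyte markers were detected, and their sum was 2553 to 3926 CPM in the class pairs, 762 to 1293 in DC pairs and 163 to 797 in Microglia pairs. It reached 7904 CPM in the Monocyte calls and 6761 in cluster 8. A monocyte transcript of the set above was found in 16 of 46 class wells at day 3 and in 3 of 41 at day 7. Over the class that is 19 of 87 wells (21.8%), near the 40 of 194 Microglia (20.6%) and above the 11 of 108 DCs (10.2%). The share over the whole class and both days is read as no more than the background in Microglia. Within the class the set was in 7 of the 8 wells of cluster 8 and 9 of the 13 Monocyte calls. Of the 47 Lymphos calls it was in 4.

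**Figure D3:**
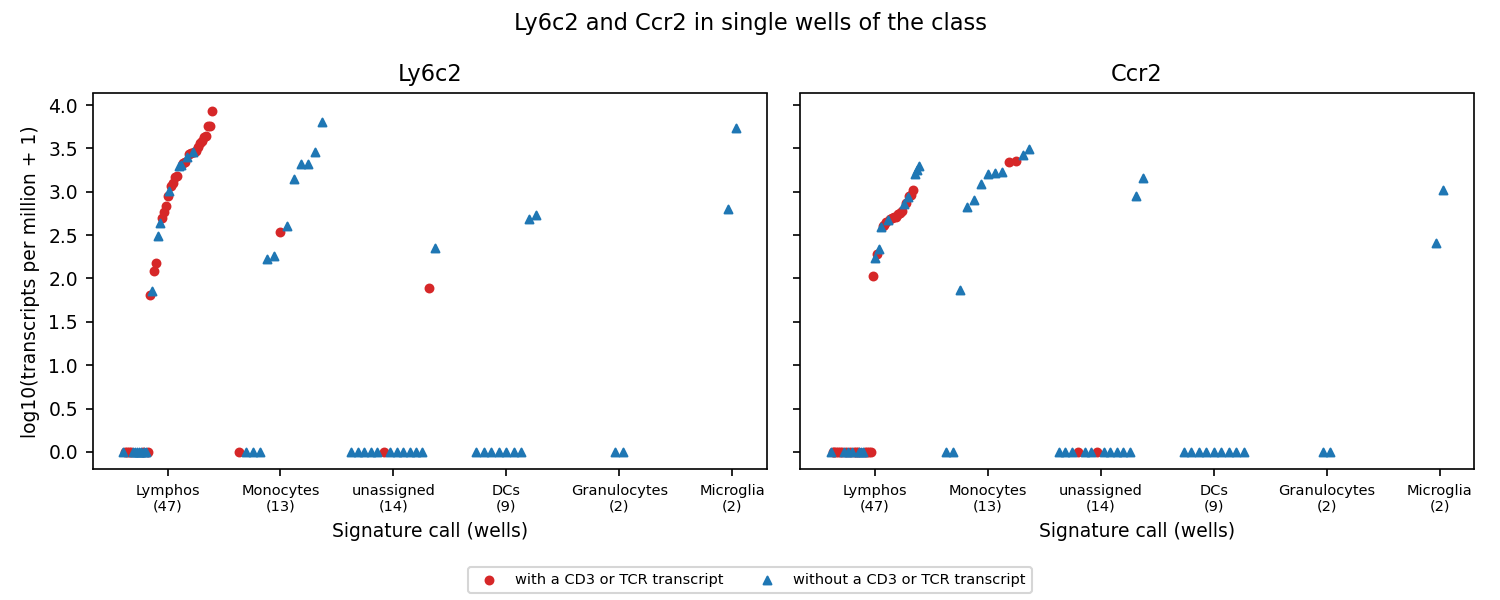
Each point is 1 of the 87 class wells; the y axis gives Ly6c2 (left) or Ccr2 (right) as log10(CPM + 1), and the x axis the signature call with its number of wells. Circles have a CD3 or T cell receptor transcript and triangles have none: 25 of the 33 Lymphos wells with Ly6c2 are circles, against 1 of the 9 Monocyte wells.

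Granulocytes were the smallest component. The 2 wells with that call came from the same day 3 library, P2-1, and together held 5254 CPM of S100a9 and 3863 of S100a8, which form the neutrophil protein calprotectin. They also held 5408 CPM of Csf3r and 1697 of Cxcr2, the neutrophil chemokine receptor, with 1080 of Mmp9 and 1080 of Siglecf, better known from eosinophils. The neutrophil list summed to 17300 CPM in them, yet the granule genes Camp, Ngp and Lcn2 and the mature neutrophil genes Retnlg and G0s2 had no transcript in any class well. Over the class the list summed to 98.4 and 1464 CPM in the day 3 pairs and to 83.8 and 37.4 in the day 7 pairs, so the day 3 pair P2 alone stood high. A transcript of S100a8 or S100a9 was found in 6 class wells, 5 of them at day 3. Of the 13 markers of eosinophils, basophils and mast cells 9 had values in the deposited counts, and 3 of these were detected.

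The 2 class wells with a Microglia call did not carry P2ry12, a purinergic receptor that marks microglia, or the complement gene C1qa, while they held 159 CPM of C1qb in both wells and 159 of C1qc in 1, against 4993 and 4073 in Microglia. They held 4862 CPM of Siglech, which both microglia and plasmacytoid dendritic cells make. Of other genes on the plasmacytoid list they held 3663 CPM of Ccr9, 874 of Tcf4 and 556 of Cox6a2. Irf8, on the list of type 1 dendritic cells, stood at 2705 CPM in these 2 wells. Their Ly6c2 level was 3670 CPM. The 7 plasmacytoid markers summed to 11700 CPM in these 2 wells and to 2246 in cluster 2, which holds them. The same list summed to 728 to 1389 CPM in Microglia pairs and 392 to 499 in DC pairs. The 9 wells with a DC call held 1367 CPM of Ccr7, the receptor for lymph node homing, in 4 wells, and 674 of Fscn1, an actin bundler of migrating dendritic cells.

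Markers of other cell types were present in the class sums as well. All 12 microglia markers were detected, and their sum was 605 to 1438 CPM in the class pairs, 513 to 922 in DC pairs and 11870 to 14840 in Microglia pairs. The macrophage list summed to 1409 to 2084 CPM in the class pairs, 292 to 1623 in DC pairs and 12120 to 16480 in Microglia pairs, and within the class to 4544 in cluster 8 and 4241 in cluster 10. Type 1 dendritic cell markers summed to 558 to 819 CPM, and those of type 2 and monocyte-derived dendritic cells to 599 to 1247, against 2028 to 2353 in DCs. Photoreceptor transcripts were in every class. The photoreceptor list summed to 607 and 1576 CPM in the day 3 pairs of the class and to 3699 and 3443 in its day 7 pairs. DCs and Microglia showed the same order, with 612 and 1931 and 1163 and 1959 CPM at day 3, and 4636 and 2833 and 4240 and 4504 at day 7.

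The class was next set against DCs and Microglia of the same pairs, to see which genes were higher in it in every pair. As the classes had been defined on these genes, the counts are a description with no test. Among 1200 genes of at least 100 CPM in the class, 37 (3.08%) were at least 2-fold higher than in DCs in all 4 pairs. Another 14 (1.17%) were at least 2-fold lower in all 4 pairs. The limit of 100 CPM applied to the class alone and left out genes low in it. Counts of the 2 directions are therefore not comparable, here or against Microglia. With mitochondrial, ribosomal and predicted genes left out, Ly6c2 led the higher genes. Its ratios were 12.6-fold and 10.5-fold in the day 3 pairs and 35.8-fold and 29.2-fold in the day 7 pairs. Ms4a4b was next, at 9.90-fold and 14.3-fold at day 3 and 48-fold and 25.9-fold at day 7. Itgal, the alpha chain of the integrin LFA-1, was at least 7.56-fold higher in each pair. The kinase of T cell receptor signalling Lck was at least 5.24-fold higher in each pair, and the receptor chain Trbc1 at least 3.49-fold. The other 7 of the 12 leaders were Cd8b1, the interleukin 2 receptor chain Il2rb, the noncoding transcript AW112010, the adaptor Fyb, Gimap4, the CD45-associated protein Ptprcap and the leukocyte tetraspanin Cd37. Where DCs held fewer than 3 transcripts in a pair, 3 were put in their place. This understates the ratio, so such ratios are lower bounds, and it also affects the ranking.

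More genes separated the class from Microglia: 101 (8.42%) were at least 2-fold higher in all 4 pairs and 36 (3.0%) at least 2-fold lower. Where Microglia held fewer than 3 transcripts in a pair, 3 were again put in their place, so ratios there are lower bounds. Ccnd2, the cyclin D2 of G1, was at least 22.3-fold higher in each pair, and Ahnak, a giant scaffold protein, at least 14.3-fold. Ly6c2 was 15.4-fold, 14.2-fold, 77.4-fold and 34.6-fold higher in the 4 pairs. Ccl5 was 10.4-fold to 30.4-fold higher, and Plac8, a gene of monocytes, plasmacytoid cells and lymphocytes, 8.87-fold to 49.2-fold. Adgre5 (CD97), the adhesion regulator Cytip, Crip1, Ly6a (Sca-1), the interferon-induced Mndal and the transcriptional inhibitor Id2 completed the leaders with Ms4a4b. Without the 20 wells of cluster 12, a comparison chosen after seeing the data, 34 genes were higher than in DCs and 84 higher than in Microglia. Without the day 7 pair P2 the count above DCs was 59.

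Within the class, T cell genes were among those that rose from day 3 to day 7, and genes of phagocytes among those that fell. In sums over the wells of a pair (n = 2 pairs per day), 51 of 3630 tested genes (1.4%) passed edgeR's quasi-likelihood test, 16 higher (0.441%) and 35 lower (0.964%). In such sums, fewer cells of a type and less RNA per cell cannot be told apart, and the calls that were Lymphos rose from 15 of 46 wells to 32 of 41 over the same days. Microglia of the same libraries had 193 called genes (5.32%), 113 higher (3.11%) and 80 lower (2.2%), and DCs had 2 (0.0551%), both higher. The median log2 change over all tested genes in the class was -0.03, and 487 genes had an unadjusted p below 0.05.

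Cd8a stood at 24.6 and 46.5 CPM in the day 3 pairs P1 and P2 and at 359.5 and 474 in the day 7 pairs. Both day 7 pairs lay above both day 3 pairs, and the rise was 3.46 ± 0.50 on the log2 scale (± SE, edgeR's quasi-likelihood test, Benjamini-Hochberg adjusted p = 0.00073). It was found in 4 wells at day 3 and 19 at day 7. Ms4a4b stood at 139.7 and 279 CPM at day 3 and 1128 and 1286 at day 7, a rise of 2.48 ± 0.40 (edgeR adjusted p = 0.00371). Both genes passed in all 4 fits that left out 1 pair each.

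Other T cell genes rose beside them, with no overlap between the days. Cd3d, a chain of the T cell receptor complex, went from 0 and 33.2 CPM to 198 and 374, a log2 change of 3.88 ± 0.81 (edgeR adjusted p = 0.0135). Thy1, a surface marker of T cells, went from 32.8 and 113 CPM to 623 and 861 (3.24 ± 0.61, edgeR adjusted p = 0.0203). Nkg7 went from 24.6 and 99.7 CPM to 395 and 449 (2.66 ± 0.51, edgeR adjusted p = 0.00712), and it passed in 2 of the 4 fits without 1 pair. Lck went from 73.9 and 79.8 CPM to 234 and 349 (1.86 ± 0.44, edgeR adjusted p = 0.0311). In counts of wells, Thy1 was in 7 at day 3 and 30 at day 7, Cd3d in 3 and 21, and Ms4a4b in 8 and 28, so these rises were spread over many cells. Cd3d and Thy1 passed in 2 of the 4 fits without 1 pair, without either day 3 pair but not without either day 7 pair, and Lck in 0.

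The rises of proliferation genes rested on few cells. Top2a, the topoisomerase of dividing cells, stood at 24.6 and 19.9 CPM at day 3 and 126 and 375 at day 7, a log2 change of 3.32 ± 0.71 (edgeR adjusted p = 0.0143). Its 51 transcripts of day 7 came from 5 wells, and 1 well gave 26 of them. Rrm2, a subunit of ribonucleotide reductase, went from 3 transcripts to 28, a ratio of summed levels of 10.3 with a 95% counting interval of 3.18 to 52.9 (edgeR adjusted p = 0.0287), and 1 well gave 19 of the 28. Stmn1, a microtubule regulator of dividing cells, went from 57.4 and 59.8 CPM to 222 and 375 (2.26 ± 0.44, edgeR adjusted p = 0.00774). It was in 9 wells on each day, and 1 day 7 well gave 25 of its 67 transcripts. In the fits without 1 pair Top2a passed in 3 of 4, Stmn1 in 2 and Rrm2 in 1.

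The remaining large rises were outside the T cell lists. Mir124a-1hg, the host gene of a neuronal microRNA, went from 8.20 and 26.6 CPM to 198 and 74.8 (2.99 ± 0.69, edgeR adjusted p = 0.025). The day 7 libraries also held more photoreceptor transcripts in all 3 classes, as given above, and the part of such RNA in this result was not tested. Srpk2, a splicing factor kinase, went from 24.6 and 19.9 CPM to 120 and 125 (2.43 ± 0.57, edgeR adjusted p = 0.0257), and it passed in 0 of the 4 fits without 1 pair. Agpat3, an acyltransferase of lipid synthesis, had 2 transcripts at day 3 and 25 at day 7, a ratio of 13.8 with an interval of 3.43 to 120 (edgeR adjusted p = 0.0229), and it passed in 1 of those 4 fits. Mir124a-1hg passed in 2 of them.

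Among the falls were genes that phagocytes make, although 1 of 8 tested classical monocyte markers and 0 of 6 tested macrophage markers fell. Monocyte calls went from 11 to 2 wells over the same days, and their part in these falls was not tested. Spp1, osteopontin, stood at 189 and 442 CPM in the day 3 pairs and at 5.99 and 0 in the day 7 pairs (edgeR adjusted p = 0.000461). The day 3 level was 81.3 times the day 7 level, with a counting interval of 14.3 to 3262, and 63 of its 90 day 3 transcripts came from 1 well. Thbs1, thrombospondin 1, stood at 115 and 554 CPM against 12 and 0, a ratio of 44.2 with an interval of 11.9 to 369 (edgeR adjusted p = 0.021), and 54 of its 97 day 3 transcripts came from 1 well. Tgm2, a transglutaminase of macrophages, fell from 649 and 513 CPM to 29.9 and 12.5, a log2 change of -4.55 ± 0.73 (edgeR adjusted p = 0.00531). Tgm2 was in 19 wells at day 3 and 3 at day 7, so its fall, unlike those of Spp1 and Thbs1, was spread over many cells.

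Il1r2, the decoy receptor for interleukin 1, had 24 transcripts in 8 wells at day 3 and none at day 7, which makes it at least 7.27-fold lower (edgeR adjusted p = 0.00553). Pilra, an inhibitory receptor of myeloid cells, and Spint1, a protease inhibitor, also had none at day 7 and were each at least 4.24-fold lower (edgeR adjusted p = 0.0297 and 0.0354). Emilin2, a matrix glycoprotein, stood at 254 and 193 CPM at day 3 and 18 and 0 at day 7, a ratio of 18.2 with an interval of 5.92 to 90.5 (edgeR adjusted p = 0.00407). Cd24a, a glycosylated surface protein of granulocytes and immature lymphocytes, was in 17 wells at day 3 and 3 at day 7, a ratio of 15.7 with an interval of 5.09 to 78.8 (edgeR adjusted p = 0.00664). Cfp, properdin of the alternative complement pathway, and Tnfrsf21, a death receptor, completed the 10 largest falls, with ratios of 13.6 and 16.3 (edgeR adjusted p = 0.0229 and 0.047). Of the 10 falls, Spp1 and Emilin2 passed in all 4 fits without 1 pair, Il1r2 and Cd24a in 3, Tgm2 in 2, Thbs1, Cfp, Spint1 and Pilra in 1, and Tnfrsf21 in 0.

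**Figure D4:**
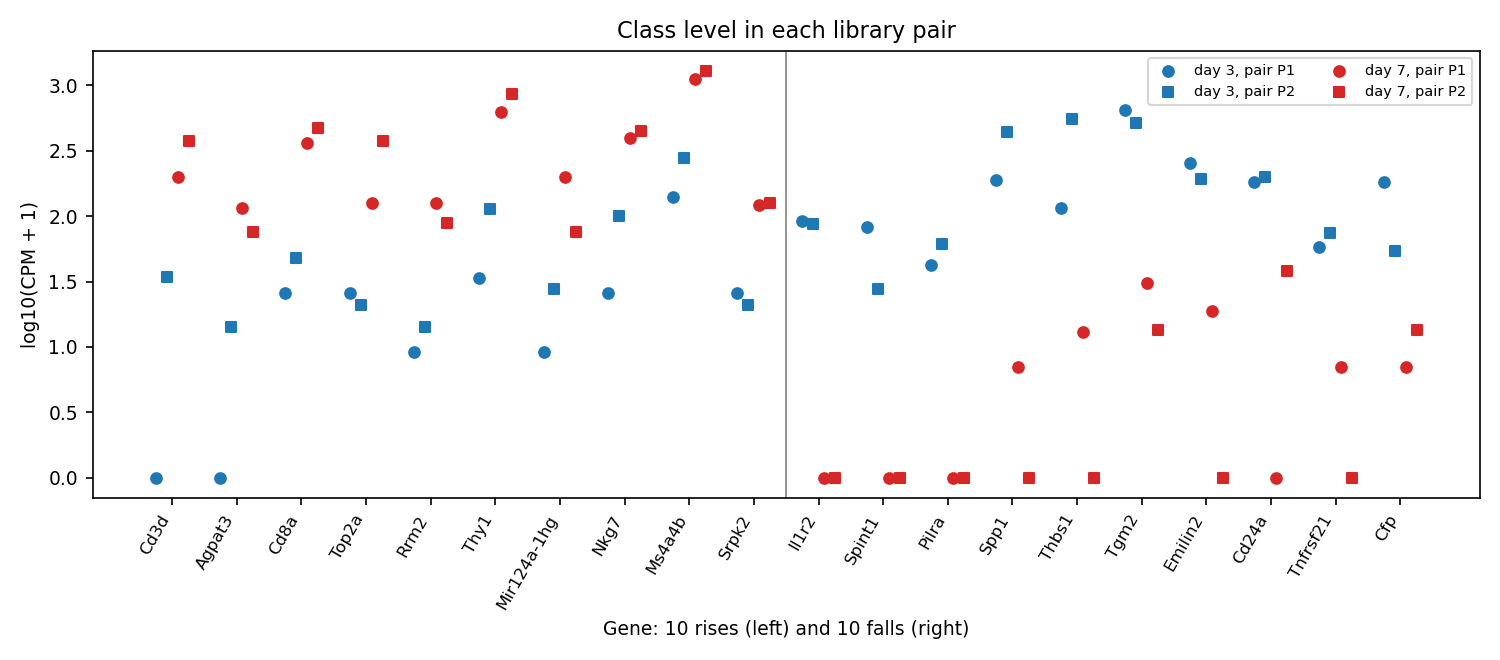
Levels of the 10 largest rises (left of the line) and 10 largest falls (right) in the summed class wells of each pair; the y axis is log10(CPM + 1), blue is day 3, red is day 7, circles are pair P1 and squares pair P2. The red points lie above both blue points for each rise and below both for each fall, which the rule for naming these genes required.

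Of the 6 genes named for the class whatever their result, Cd8a, Nkg7 and Ms4a4b rose, and Ly6c2 and Ccr2 did not pass. Ly6c2 stood at 295.5 and 1189 CPM at day 3 and 1683 and 1449 at day 7 (1.03 ± 0.75, edgeR adjusted p = 0.606). Without the day 3 pair P2 it was 2.46 higher at day 7 and passed (edgeR adjusted p = 0.000839), and without the day 3 pair P1 it was 0.32 higher (0.888), so its call turned on the day 3 pair P2. Ccr2 stood at 665 and 526 CPM at day 3 and 288 and 224 at day 7 (-1.18 ± 0.82, edgeR adjusted p = 0.588). Chil3 was too low to be tested, at 32.8 and 53.2 CPM against 24 and 0.

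When the day comparison was restricted to the wells with a Lymphos call, 6 genes passed, 5 of them among the 51, and Cd8a was 4.53 higher on the log2 scale (edgeR adjusted p = 0.00427). The other T cell rises lost their call there: Ms4a4b was 1.33 higher (edgeR adjusted p = 0.173), Nkg7 1.53 (0.247), Thy1 2.33 (0.0924) and Cd3d 2.77 (0.144). Without the wells of cluster 12, 13 genes passed, 11 of them among the 51; Ms4a4b and Thy1 kept their rise (edgeR adjusted p = 0.0213 for each) and Spp1 its fall (edgeR adjusted p = 0.0121), whereas Cd8a (edgeR adjusted p = 0.395), Nkg7 (0.335) and Cd3d (0.43) did not pass. Top2a was then 0.55 higher, against 3.32 in the whole class (edgeR adjusted p = 0.92). Both restrictions were chosen after seeing the data. In cluster 2 alone 1 gene passed, and it was not among the 51. Leaving out the day 3 pair P2 gave 97 called genes, the day 7 pair P1 gave 21 and the day 7 pair P2 gave 25.

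The pathway lists are read against the background over all tested genes, of which 0.441% rose and 0.964% fell, with a median change of -0.03. Of the 11 tested genes of T cell receptor signalling and co-stimulation, 2 rose (Cd3d and Lck), none fell, and the median change was 2.45. Of the 7 tested genes of cytotoxic granules and killing 1 rose (Nkg7), with a median of 1.39. The cell cycle list had 3 rises (Top2a, Rrm2 and Stmn1) among 17 tested and a median of 1.94, and its summed level was 1321 and 1037 CPM at day 3 and 2008 and 3659 at day 7. Mki67, the proliferation antigen of that list, stood at 8.20 and 46.5 CPM at day 3 and 53.9 and 312 at day 7 and did not pass (edgeR adjusted p = 0.501). None of the 7 tested genes of activation and residency passed, with a median of 0.17, nor did any of the 4 of lymphocyte circulation, with a median of -0.82. The 8 genes of MHC class I presentation, where reads shared between near-identical copies make single genes uncertain, had none passing and a median of 0.53.

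Lists of myeloid functions lay below the median of all genes, and their falls stand beside the 0.964% of all genes that fell. The wound, matrix and angiogenic list had 2 falls (Spp1 and Thbs1) among 9 tested and a median of -1.12, with summed levels of 2111 and 2275 CPM at day 3 and 1046 and 87.2 at day 7. In complement and uptake 1 of 8 fell, Fcgr3, an Fc receptor of phagocytes, by 2.46 on the log2 scale, and the list's median was -0.95. Of 7 MHC class II genes 1 fell, H2-Eb1, by 1.29, with a median of -1.51. The summed class II level was 18300 CPM in the day 3 pair P1 but 4542 in the day 3 pair P2, and 3738 and 4485 at day 7, so the first pair alone stood high. In that pair all 5 class wells of library P1-1 and 9 of 13 of P1-2 were in cluster 2. Chemokine receptors had 1 fall among 10, Ccr1, a receptor of monocytes and neutrophils, by 3.16, and adhesion genes 2 among 11, Itgam (CD11b) by 1.89 and Cd44, the hyaluronan receptor, by 1.36.

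The interferon list had 1 fall among 15 tested, Ifitm3, a membrane protein that blocks viral entry, by 1.88, and a median of 0.12. Its relative Ifitm2, in the alarmin list, fell by 2.50, 1 of 10 tested there. Among immediate early genes Zfp36, which destabilises inflammatory mRNAs, fell by 2.05, 1 of 10. No gene passed among 10 chemokines, 5 inflammatory cytokines and feedback genes, 13 lysosomal and lipid genes or 10 glycolytic genes, whose medians were -1.07, -1.09, -0.60 and -0.10. Further myeloid genes among the 35 falls were Spi1, the master transcription factor of myeloid cells, Tyrobp and Fcer1g, signalling adaptors, Syk and Fgr, kinases downstream of them, and Lyz1, which fell by 1.90. Of the marker lists, 4 of 10 tested T cell genes rose, and 1 of 8 tested monocyte genes fell.

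The day change in the class was then compared with that in DCs and in Microglia of the same libraries, as the difference of the 2 log2 changes in 1 fit over 12 sums. Against DCs 9 genes passed (0.248%), 5 with a higher change in the class (0.138%) and 4 with a lower one (0.11%). Against Microglia 59 passed (1.63%), 25 higher (0.689%) and 34 lower (0.937%). Both comparisons use the same class sums. At an unadjusted p below 0.05 the counts were 345 and 589.

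Genes of dividing cells were among those whose change differed. Stmn1, which rose in the class as given above, stood at 127 and 90.1 CPM in DCs at day 3 and 7.83 and 16.6 at day 7, and in Microglia at 358 and 291 and then 25.4 and 55.9. Its change in the class was higher by 5.43 than in DCs (edgeR adjusted p = 0.00304). It was higher by 4.84 ± 0.60 than in Microglia (edgeR adjusted p of the difference = 6.32e-05). Within Microglia Stmn1 fell (edgeR adjusted p of the fall = 0.000637). Its DC change did not pass on its own (edgeR adjusted p = 0.158). Top2a stood at 155 and 67.6 CPM in DCs at day 3 and 7.83 and 16.6 at day 7, and at 313 and 229 and then 0 and 9.31 in Microglia, where it also fell (edgeR adjusted p = 0.00063). Smc4, a condensin subunit, stood at 65.6 and 66.5 CPM in the class at day 3 and 192 and 349 at day 7, against 326 and 177 and then 25.4 and 14 in Microglia, a difference of 5.05 ± 0.75 (edgeR adjusted p = 0.000718).

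Hmgb2, a chromatin protein of dividing cells, stood at 98.4 and 166 CPM in the class at day 3 and 336 and 901 at day 7, against 556 and 344 and then 50.7 and 69.8 in Microglia, a difference of 4.54 ± 0.73 (edgeR adjusted p = 0.00663). Against DCs its difference was 3.94 ± 0.81 (edgeR adjusted p = 0.0484). Tuba1a, an alpha tubulin, stood at 410.3 and 379 CPM in the class at day 3 and 883 and 976 at day 7, against 1722 and 1583 and then 391 and 647 in Microglia, a difference of 2.45 ± 0.43 (edgeR adjusted p = 0.00663). Of the 17 cell cycle genes 4 had a higher change in the class than in DCs and 6 than in Microglia. As given above, a single well held 26 of the 51 class transcripts of Top2a at day 7 and 19 of the 28 of Rrm2.

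Differences in the other direction were found for Cd24a and Cst3. Cd24a, which fell in the class, stood at 108 and 66.1 CPM in DCs at day 3 and 196 and 166 at day 7, and its change in the class was lower by a fitted log2 of -5.07 (edgeR adjusted p = 0.00899), a value that rests on 3 class transcripts at day 7. Cst3, the protease inhibitor cystatin C and a marker of dendritic cells, stood at 2240 and 1218 CPM in the class at day 3 and 1241 and 1086 at day 7. In DCs it stood at 3177 and 2943 CPM and then 7046 and 8533, and the difference was -1.93 ± 0.37 (edgeR adjusted p = 0.018). The Cst3 difference did not pass without the day 7 pair P1 (edgeR adjusted p = 0.126) or P2 (0.387), nor that of Cd24a without the day 7 pair P1 (0.24). Without the day 7 pair P1 the genes that differed from Microglia numbered 8, and without the day 7 pair P2 they numbered 14. Without cluster 12 only 1 differed from Microglia, Stmn1, which also kept its difference from DCs. Top2a then differed by 3.67 from DCs (edgeR adjusted p = 0.54) and by 5.97 from Microglia (0.0754).

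**Figure D5:**
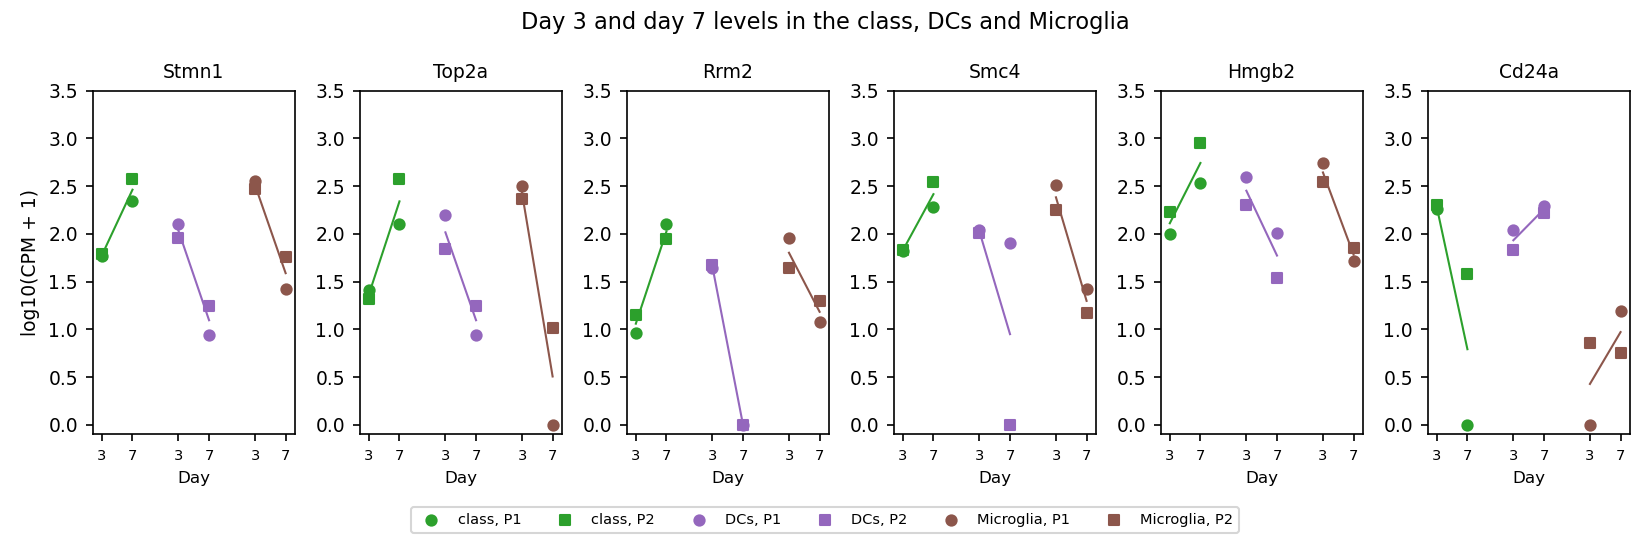
Levels of 6 genes at day 3 and day 7 (x axis) in the class, DCs and Microglia, as log10(CPM + 1); circles are pair P1, squares pair P2, and lines join the means of the log values of both pairs. Stmn1, Top2a, Rrm2, Smc4 and Hmgb2 slope upwards in the class and downwards in DCs and Microglia, and Cd24a slopes downwards in the class and upwards in DCs.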

How the data were processed

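Per the submitters' processing notes, BWA 0.6.2-r126 was the aligner. Which build and annotation it was run against is not given in the sources used here. The deposited library tables hold estimated counts, 1 value for a gene in a well, derived by the authors from molecular identifiers and not normalized. The deposited annotation table gives other values, namely each well's class, cluster and signature call, and the unnormalized retina table was used only to match annotated wells to libraries by equal values. All 389 annotated laser wells were found, and 122 columns of control wells were not mapped or used. Annotated wells entered whether or not they passed the filter, and no doublet caller was run, since a well received 1 sorted cell by design. The well filter served only as an alternative.

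The wells of a class, day and pair were added up for every gene (12 sums), rounded, filtered (filterByExpr), scaled by TMM and compared with edgeR 4.0.16 in R 4.3.3 (robust quasi-likelihood test, 1 fit of all sums, adjusted p threshold 0.05); DESeq2 1.42.0 was an alternative. Levels are transcripts scaled to a sum of 1e6 (CPM), and for cluster leaders the mean of such values over wells. With 0 transcripts in a group, a bound uses 3 transcripts over the group; with 1 to 3, a ratio with a 95% interval is given, and both cover counting error only. Shares were compared by two-sided exact permutation over libraries (SciPy 1.17.1, Python 3.11.15). Simulated data were made for the class's day comparison (4073 genes tested). In them 30% of genes changed by a log2 of 2 and 77% of those changed by 3.5 were recovered. Of the calls 3.6% were false. All 12 simulated sums were drawn from the class means with 1 fixed spread for every gene and without single wells. In the real sums 1 well can hold much of a gene, so these rates do not describe the real calls.

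Named genes were, first, 6 genes given for the class whatever their result. Up to 4 members of a list with the highest level or smallest p were added. The 10 largest called rises and falls with pairs that do not overlap and 50 CPM or more on 1 day were named too. So were the 12 genes of at least 100 CPM with the largest smallest-pair ratio to DCs or Microglia. Clusters of at least 10 wells gave 8 leaders found in at least 40% of wells. The last were the 5 called differences of smallest p per class. Mitochondrial, ribosomal and predicted genes were left out. Others among the called genes were named after their values were seen. The members and lists were chosen with earlier results of these data known. Pair names are shared by both days without a statement that they mark the same animals, so no block was used in the comparison. The results of some genes are not reported here. Genes with near-identical copies, such as MHC class I genes, Ms4a genes and Ly6c2, are uncertain.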

Additional observations from a re-analysis of the deposited data

Results flagged for a closer look

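The change from day 3 to day 7 differed between the class and another cell class, by the test of the difference itself (edgeR's quasi-likelihood test, Benjamini-Hochberg adjusted), for 10 named results. As log2 differences, class minus DCs, these were 5.43 for Stmn1, 6.44 for Top2a, 9.46 for Rrm2, -5.07 for Cd24a and -1.93 for Cst3. Class minus Microglia, they were 4.84 for Stmn1, 8.75 for Top2a, 5.05 for Smc4, 2.45 for Tuba1a and 4.54 for Hmgb2. Rrm2 had no transcript in DCs at day 7 and 3 in the class at day 3, and Cd24a had 3 in the class at day 7, so the sizes of such fitted values depend on a prior count and are no bounds. No library stood apart from the other 3 of its group in the 14 sets of library shares examined.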

How the results depend on the processing

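Depth limits these results: with 15 to 28 class wells in a pair, a gene of few transcripts can pass through 1 well, and a missing transcript shows only that none was seen. The alternatives gave 441 values for 32 results, each of 1 named gene in 1 comparison, so a gene can count more than once. Of these values 317 kept their direction and side of the threshold and 122 lost the call. Another 1 gained it (Ly6c2 without the day 3 pair P2), and 1 changed sign (Ly6c2, -0.30 in the largest cluster). Causes were not tested unless stated.

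Leaving out 1 library at a time, the differences in share, in percentage points, ran from -4.16 to 2.65 for the class, -41.1 to -16.9 for cluster 2 (lowest in size without the day 3 library P1-1), 27.3 to 39.8 for cluster 12, -7.47 to 6.05 for cluster 13, 40.9 to 51.2 for Lymphos, -20.9 to -16.7 for Monocytes and -17.8 to -14.1 for unassigned wells. The class and cluster 13 shares, which did not pass, thus changed sign.

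Genes higher than in DCs numbered 37, and 22 at 4-fold, 140 from 20 CPM and 41 to 59 without 1 pair. Those above Microglia numbered 101, and 53, 313 and 112 to 140 under the same settings. The 51 genes called in the class, of 3630 tested, became 105 of 19167 without the filter on low counts. They became 80 with single libraries as samples and 12 of 1979 tested from the 4 class sums alone. They numbered 1 in the largest cluster, 6 in Lymphos wells, 13 without cluster 12 and 21 to 97 without 1 pair. Why these counts moved was not tested. The 9 differences from DCs became 5 with DESeq2, 22 without the filter, 2 with single libraries and 6 to 26 without 1 pair. The 59 differences from Microglia became 91, 130, 95 in wells past the depth and mitochondrial limits, 3 in the largest cluster, 26 in Lymphos wells, 1 without cluster 12 and 8 to 53 without 1 pair. The settings by Lymphos wells, by cluster 12 and, for differences, by largest cluster were chosen after seeing the data.

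With the pair number as a replicate block, 67 genes were called in the class and 9 and 66 differed from DCs and Microglia. The pair numbers are not shown to pair samples: deviations of same-numbered pairs correlated at 0.0781 over 3630 genes.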
